A study of Mus musculus with 3 samples.

Results

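The genes described here are 34 genes of the lysosome: 17 acid hydrolases and their soluble helpers, 8 membrane proteins, 7 subunits of the proton pump, and the transcription factors Tfeb and Mitf. They were chosen by name, as the rows of these symbols in the gene tables of all 3 libraries, with earlier results of these data known. All 34 were found, among 27998 genes that the 3 tables share. Values are counts of unique molecular identifiers (UMIs, one per captured RNA molecule) from 3′ ends of single-cell RNA, added up within a library and given as CPM, the UMIs of a gene per 1000000 UMIs of the same cells.

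The study set cardiac macrophages after myocardial infarction against those of uninjured hearts. All mice were C57BL/6 and 8 to 12 weeks old. The day 11 library held macrophages taken 11 days after infarction, and the steady-state library held macrophages of uninjured hearts; both came from Cx3cr1CreER-YFP/+:R26Td/+ mice, which carry CreER and YFP at one Cx3cr1 allele and a Cre-dependent tdTomato at Rosa26. The third library, from wild-type mice with uninjured hearts, held macrophages together with dendritic cells (DCs), called wild-type macrophages and wild-type DCs below. The sorting gate was CD45+CD64+CD11b+ for macrophages, and for DCs it was CD45+CD64-CD11c+ with MHC class II from intermediate to high, both on live cells. Flavopiridol, an inhibitor of transcription, was in the digestion buffer of all 3 libraries. The labels give neither the number of hearts pooled nor whether tamoxifen was used. Each group is 1 library, so library and condition cannot be told apart, no test against a spread between animals was possible, and all intervals are exact 95% intervals that cover counting error only.

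The lysosome is the acidic compartment in which macrophages break down what they engulf and what autophagy delivers. Soluble hydrolases, most of them delivered by the mannose 6-phosphate pathway, each cut one kind of bond in glycans, sphingolipids, proteins or sulphated sugars. The vacuolar ATPase, made of a membrane sector (V0) and an ATP-splitting sector (V1), pumps in the protons that these enzymes need. Heavily glycosylated membrane proteins such as LAMP1 and LAMP2 line the inner face of the membrane, and transporters and channels beside them let lipids and ions out. TFEB and its relative MITF bind an E-box with the core CACGTG, found near the start of many lysosomal genes and there called the CLEAR motif. In the infarcted heart, macrophages clear dead cardiomyocytes and matrix.

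Promoter windows from 250 bases before to 50 bases after the annotated start (RefSeq, build GRCm38.p6) were found for 30 of the 34 genes; Npc1, Asah1, Atp6v0d2 and Atp6v1b2 had none. On either strand, CACGTG was in a window of 9 of these 30 genes (30%), against 8.09% of the 27025 genes with a window. The longer TCACGTG, which holds the core and was searched with its reverse complement CACGTGA, was in the same 9 genes (30%, against 4.29%): Gla, Glb1, Naglu, Lgmn, Lamp1, Mcoln1, Atp6v0d1, Atp6v0e and Atp6v1a. TCACGTGA, which reads the same on both strands and contains the other motifs, was in 5 genes (16.7%, against 1.12%): Gla, Mcoln1, Atp6v0d1, Atp6v0e and Atp6v1a. The 27025 genes include many that did not reach 20 CPM in these cells. Of the genes with a window that reached it in the Gpnmb comparison below, 329 held TCACGTG and 3658 did not. Among the members there, 8 held it and 21 did not. The windows of Gla, Naglu and Atp6v1a are shown because these 3 genes hold the motif and were higher in Gpnmb-positive cells below, and that of Lamp1 because it holds 4 sites. They run 5′ to 3′ on the gene's strand at chrX:134600956-134601255 (minus) for Gla, chr11:101069844-101070143 (plus) for Naglu, chr16:44139210-44139509 (minus) for Atp6v1a and chr8:13158911-13159210 (plus) for Lamp1, with the motif in capitals.
Gla: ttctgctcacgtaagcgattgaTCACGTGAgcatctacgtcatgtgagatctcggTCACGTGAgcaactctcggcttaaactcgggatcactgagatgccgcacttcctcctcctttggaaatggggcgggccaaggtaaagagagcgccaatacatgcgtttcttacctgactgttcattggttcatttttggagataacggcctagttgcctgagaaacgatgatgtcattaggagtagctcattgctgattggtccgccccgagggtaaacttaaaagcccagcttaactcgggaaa
Naglu: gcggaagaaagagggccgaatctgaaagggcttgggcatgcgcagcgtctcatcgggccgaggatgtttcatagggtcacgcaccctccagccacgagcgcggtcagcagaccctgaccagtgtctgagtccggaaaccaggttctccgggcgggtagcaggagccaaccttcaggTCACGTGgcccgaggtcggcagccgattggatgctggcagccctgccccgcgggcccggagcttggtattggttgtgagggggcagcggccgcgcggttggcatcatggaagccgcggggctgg
Atp6v1a: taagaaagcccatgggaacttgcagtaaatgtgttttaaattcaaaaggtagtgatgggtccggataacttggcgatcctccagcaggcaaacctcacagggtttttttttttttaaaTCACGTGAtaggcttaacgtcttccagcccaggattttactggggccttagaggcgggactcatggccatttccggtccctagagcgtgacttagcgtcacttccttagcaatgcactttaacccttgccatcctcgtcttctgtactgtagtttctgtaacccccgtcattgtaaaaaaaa
Lamp1: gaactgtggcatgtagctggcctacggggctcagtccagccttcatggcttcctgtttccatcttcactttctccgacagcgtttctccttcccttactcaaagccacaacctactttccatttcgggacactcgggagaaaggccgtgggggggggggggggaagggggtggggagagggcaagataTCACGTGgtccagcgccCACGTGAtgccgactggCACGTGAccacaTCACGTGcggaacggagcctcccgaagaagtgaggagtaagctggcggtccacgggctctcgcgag
The 2 sites of Gla lie at -227 and -194, the site of Naglu at -73, that of Atp6v1a at -131, and those of Lamp1 at -61, -45, -28 and -15, counted from the RefSeq start. GENCODE, used for gene positions below, places some starts elsewhere. Its range of Atp6v1a (chr16:44085402-44139705) holds the whole window, and its Naglu start (101070012) lies inside the window, before the site. By that annotation the printed sites of Atp6v1a and Naglu are within the gene and not upstream of it. A match describes the letters of a window and not binding.

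The day 11 library held 4697 barcodes with 45177529 UMIs, the steady-state library 1806 with 23711707, and the library of macrophages and DCs 1780 with 14388327. After filtering, 4442 day 11 macrophages and monocytes were kept, with a median of 8146 UMIs per cell, and 1723 at steady state, with a median of 10805. The third library gave 763 DCs (median 10111 UMIs) and 937 wild-type macrophages (median 5278). The 3 C1q genes together had 18940 CPM at day 11, 20150 CPM at steady state, 220 CPM in wild-type DCs and 12730 CPM in wild-type macrophages. The 13 DC markers had 142 CPM at day 11, 172 CPM at steady state, 1872 CPM in wild-type DCs and 289 CPM in wild-type macrophages. Both lists also set the DC class, so their contrast between wild-type DCs and macrophages was built in. Markers of T or NK cells, B cells, endothelial cells, fibroblasts, neutrophils, plasmacytoid DCs and cardiomyocytes stayed between 0.125 and 99.7 CPM per list in these 4 sets. Cells with at least 5 UMIs of such a list, and more than of C1q, had been set aside beforehand. Wild-type macrophages stood apart by Retnla, at 7463 CPM, against 60.3 CPM at day 11 and 1112 CPM at steady state. The cardiomyocyte list also set aside 41 wild-type cells with DC markers (Flt3 110 CPM, Xcr1 265 CPM). Libraries shared 7 to 11 barcodes per pair. Annotated genes that are also counted overlap 9 members: Glb1 shares its strand with Tmppe, while Acp2, Arsb, Atp6v1b2, Grn, Hexa, Lamp1, Npc1 and Ppt1 are overlapped on the other strand, and the strand setting of the counting was not given, so reads of these pairs may be mixed.

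Among the hydrolases that trim sugars from glycoproteins and glycolipids, the day 11 and steady-state levels lay within 1.5-fold of each other for all but Gla. Gla, alpha-galactosidase A, had 17.1 CPM in day 11 macrophages (15.9 to 18.4) and 6.33 CPM at steady state (5.34 to 7.45), and 4.75 CPM in wild-type DCs and 4.47 CPM in wild-type macrophages. Glb1, beta-galactosidase, had 32.1 CPM at day 11 and 31.7 CPM at steady state, and 14.6 CPM in wild-type DCs and 28.4 CPM in wild-type macrophages. Gla was thus a low gene in all 4 sets, and its day 11 interval lay clear of the others. Gusb, beta-glucuronidase, had 268 CPM at day 11 and 206 CPM at steady state, and 111 CPM in wild-type DCs and 170 CPM in wild-type macrophages. Naglu, which removes N-acetylglucosamine from heparan sulphate, had 35.9 CPM at day 11 and 29.5 CPM at steady state, and 13.2 CPM in wild-type DCs and 19.5 CPM in wild-type macrophages. Both were highest at day 11 and lowest in DCs. Hexa, the alpha chain of beta-hexosaminidase, which degrades ganglioside GM2, had 765 CPM at day 11 and 808 CPM at steady state, and 299.6 CPM in wild-type DCs and 576 CPM in wild-type macrophages. Man2b1, the lysosomal alpha-mannosidase, had 349 CPM at day 11 and 438 CPM at steady state, and 214 CPM in wild-type DCs and 237 CPM in wild-type macrophages. Neu1, the lysosomal sialidase, had 65.1 CPM at day 11 and 48.6 CPM at steady state, and 13.2 CPM in wild-type DCs and 37.0 CPM in wild-type macrophages. Hexa and Man2b1 were thus lower at day 11 than at steady state and Neu1 higher, each with a ratio inside 1.5-fold.

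The sphingolipid genes had another order, with the 2 soluble helpers and one thioesterase highest in DCs. Psap, the precursor of the saposins that present sphingolipids to their hydrolases, had 2836 CPM in day 11 macrophages and 2362 CPM at steady state, and 3382 CPM in wild-type DCs and 2814 CPM in wild-type macrophages. Gm2a, the GM2 activator that hands the ganglioside to hexosaminidase, had 326 CPM at day 11 and 271 CPM at steady state, and 1423 CPM in wild-type DCs and 594 CPM in wild-type macrophages. Asah1, acid ceramidase, had 345 CPM at day 11 and 303 CPM at steady state, and 159.8 CPM in wild-type DCs and 289.7 CPM in wild-type macrophages. Asah1 did not follow the helpers, being lowest in DCs. Ppt1, which removes palmitate from proteins, had 195 CPM at day 11 and 157 CPM at steady state, and 546 CPM in wild-type DCs and 132 CPM in wild-type macrophages.

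Of the proteases, phosphatases and the sulphatase, Acp5 and Arsb moved in opposite directions at day 11. Acp5, tartrate-resistant acid phosphatase, known from osteoclasts, had 78.2 CPM in day 11 macrophages (75.5 to 80.9) and 15.3 CPM at steady state (13.7 to 17.0), and 12.0 CPM in wild-type DCs and 18.8 CPM in wild-type macrophages. Arsb, which removes sulphate from dermatan and chondroitin sulphate, had 22.7 CPM at day 11 and 48.2 CPM at steady state, and 73.7 CPM in wild-type DCs and 23.6 CPM in wild-type macrophages. The 3 other sets of Acp5 lay within 12.0 to 18.8 CPM, whereas the day 11 value of Arsb was close to that of wild-type macrophages. Lgmn, the asparaginyl endopeptidase legumain, had 1461 CPM at day 11 and 1093 CPM at steady state, and 68.3 CPM in wild-type DCs and 673 CPM in wild-type macrophages. Tpp1, a tripeptidyl peptidase, had 116 CPM at day 11 and 124 CPM at steady state, and 19.7 CPM in wild-type DCs and 76.6 CPM in wild-type macrophages. Both peptidases were several-fold lower in DCs. Grn, progranulin, the precursor of lysosomal granulins, had 894 CPM at day 11 and 994 CPM at steady state, and 215 CPM in wild-type DCs and 543 CPM in wild-type macrophages. Acp2, lysosomal acid phosphatase, had 47.0 CPM at day 11 and 50.0 CPM at steady state, and 3.87 CPM in wild-type DCs and 34.3 CPM in wild-type macrophages.

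The membrane proteins differed little between the day 11 and steady-state libraries apart from Scarb2 and Npc1. Lamp1 had 1152 CPM in day 11 macrophages and 1047 CPM at steady state, and 167 CPM in wild-type DCs and 757 CPM in wild-type macrophages. Lamp2, whose product also serves chaperone-mediated autophagy, had 374 CPM at day 11 and 394 CPM at steady state, and 72.3 CPM in wild-type DCs and 311 CPM in wild-type macrophages. Cd68, macrosialin, a LAMP relative of macrophages, had 734 CPM at day 11 and 634 CPM at steady state, and 236 CPM in wild-type DCs and 490.4 CPM in wild-type macrophages. All 3 LAMP family genes were lowest in DCs. Scarb2 (LIMP-2), the receptor that carries beta-glucocerebrosidase to the lysosome, had 124 CPM at day 11 (120.5 to 127) and 77.7 CPM at steady state (74.1 to 81.4), and 50.7 CPM in wild-type DCs and 68.4 CPM in wild-type macrophages. Npc1, which exports cholesterol, had 39.1 CPM at day 11 (37.2 to 41.1) and 25.8 CPM at steady state (23.8 to 28.0), and 8.62 CPM in wild-type DCs and 15.5 CPM in wild-type macrophages. For Scarb2 and Npc1 the day 11 library was the highest of the 4 sets, as it also was for Lamp1, Cd68 and Laptm5. Laptm4a had 390.4 CPM at day 11 and 432 CPM at steady state, and 165 CPM in wild-type DCs and 381 CPM in wild-type macrophages. Laptm5, a related protein of blood cells, had 1016 CPM at day 11 and 839.9 CPM at steady state, and 767 CPM in wild-type DCs and 836 CPM in wild-type macrophages. Mcoln1, the calcium channel TRPML1, was under 20 CPM everywhere, with 12.7 CPM at day 11 and 14.6 CPM at steady state, and 4.996 CPM in wild-type DCs and 10.7 CPM in wild-type macrophages.

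Of the 7 proton pump genes, 6 were detected in every set, and Atp6v0d2 was detected in macrophages and not in DCs. Atp6v0d2, the d2 form of a V0 subunit known from osteoclasts, had 13.3 CPM in day 11 macrophages (12.2 to 14.4) and 5.98 CPM at steady state (5.01 to 7.07), and no UMI in 763 wild-type DCs against 2.50 CPM (1.37 to 4.196) in wild-type macrophages. Its sister Atp6v0d1, the ubiquitous form, had 145 CPM at day 11 and 138 CPM at steady state, and 80.9 CPM in wild-type DCs and 116 CPM in wild-type macrophages. The d1 form was thus much the same in both reporter libraries. Atp6v0c, the proton-carrying ring subunit, had 24.2 CPM at day 11 and 26.7 CPM at steady state, and 10.1 CPM in wild-type DCs and 18.9 CPM in wild-type macrophages. Atp6v0e, a small V0 subunit, had 497 CPM at day 11 and 372 CPM at steady state, and 542 CPM in wild-type DCs and 426 CPM in wild-type macrophages. Among the pump genes it was the exception that was highest in DCs. In the V1 sector, Atp6v1a, the catalytic A subunit, had 108 CPM at day 11 and 79.3 CPM at steady state, and 30.4 CPM in wild-type DCs and 57.7 CPM in wild-type macrophages. Atp6v1b2, the B2 subunit that pairs with it, had 111 CPM at day 11 and 91.4 CPM at steady state, and 48.6 CPM in wild-type DCs and 83.6 CPM in wild-type macrophages. The accessory gene Atp6ap1 had 232 CPM at day 11 and 192 CPM at steady state, and 87.8 CPM in wild-type DCs and 181 CPM in wild-type macrophages.

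Tfeb and Mitf were nearly level between the reporter libraries. Tfeb had 29.2 CPM in day 11 macrophages (27.6 to 30.9) and 29.7 CPM at steady state (27.5 to 32.0), and 11.9 CPM in wild-type DCs and 17.7 CPM in wild-type macrophages. Mitf had 25.4 CPM at day 11 (23.9 to 27.0) and 24.5 CPM at steady state (22.5 to 26.6), and 2.12 CPM in wild-type DCs and 18.04 CPM in wild-type macrophages. The intervals of each gene overlap between day 11 and steady state. RNA levels of these factors do not show how much of the protein was in the nucleus.

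**Figure D1:**
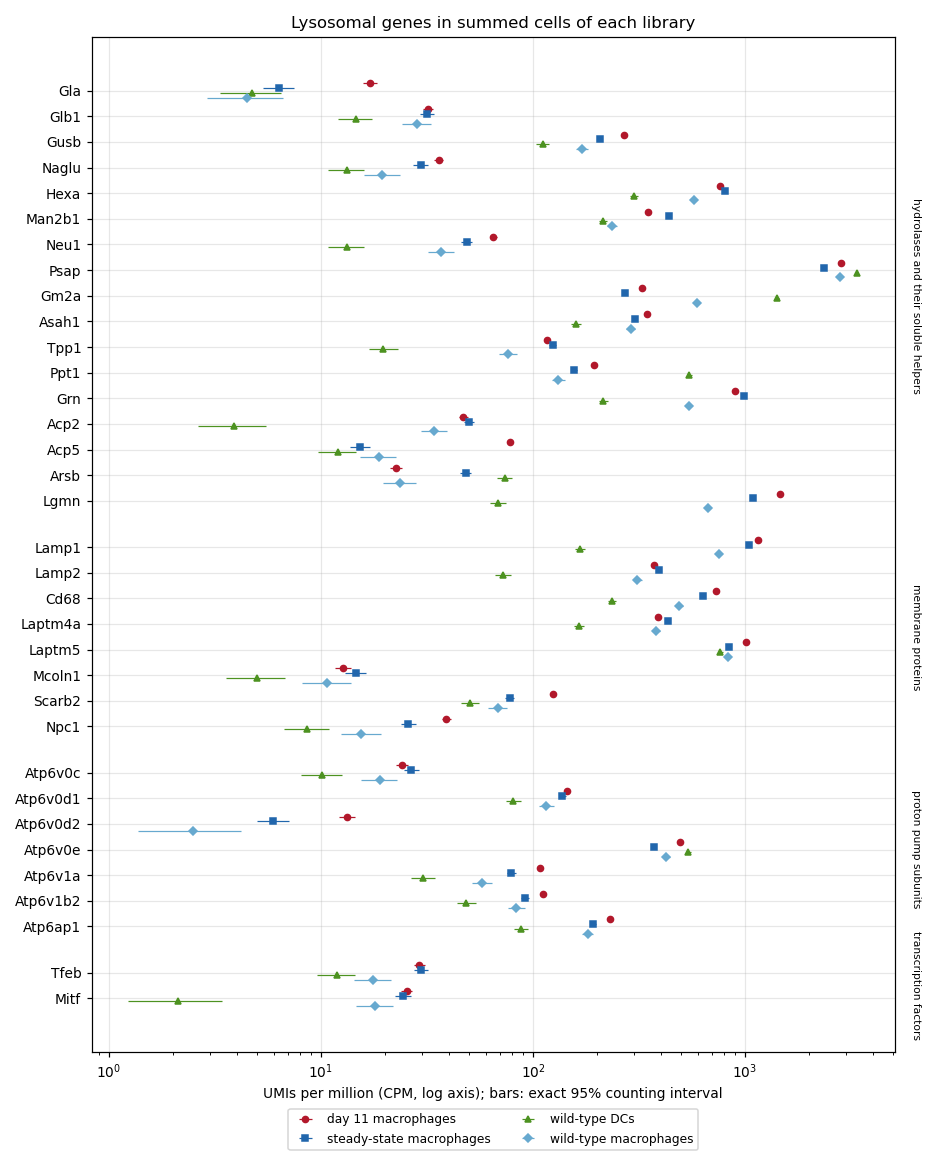
Levels of the 34 lysosomal genes in CPM (log axis) in summed day 11 macrophages, steady-state macrophages, wild-type DCs and wild-type macrophages, with exact 95% counting intervals as bars. Acp5 stands out at day 11 (78.2 CPM, against 15.3 CPM at steady state), and most genes are lowest in DCs, while Gm2a, Ppt1, Arsb, Psap and Atp6v0e are among those highest there; Atp6v0d2 has no DC point because no UMI was found.

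The first comparison asked how lysosomal genes of cardiac macrophages differed at day 11 after infarction from steady state. A gene was called higher or lower when it differed at least 1.5-fold and reached 20 CPM on either side, which 31 of the 34 genes did; Gla, Mcoln1 and Atp6v0d2 did not. Acp5 was 5.11-fold higher at day 11 (4.58 to 5.73), Scarb2 1.59-fold (1.51 to 1.68) and Npc1 1.52-fold (1.38 to 1.67), while Arsb was lower, with a ratio of 0.471 (0.431 to 0.514). Over all 5320 genes that reached 20 CPM, 3.93% were called higher and 6.69% lower, so 3 of 31 and 1 of 31 are small counts on which little can be read. Acp5 reached 20 CPM only through the day 11 library. The intervals of Scarb2 and Npc1 reach to about the 1.5-fold limit or below it. Acp5 is at chr9:22126727-22135711 and Arsb at chr13:93771630-93943016 (build mm10).

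The remaining 27 genes that reached 20 CPM lay within 1.5-fold. Of all 31, 21 had a ratio above 1, against 39.9% of all genes, and their median ratio was 1.16, against 0.960 over all genes. By role, the median was 1.17 for 16 hydrolases and helpers, 1.16 for 7 membrane proteins and 1.21 for 6 pump subunits. Pump subunits with ratios above 1 included Atp6v1a at 1.36 (1.29 to 1.44) and Atp6v0e at 1.34 (1.30 to 1.37), and Atp6v0c had 0.905 (0.818 to 1.00). Of the 3 genes below 20 CPM, Gla had a ratio of 2.70 (2.26 to 3.25), Atp6v0d2 2.22 (1.84 to 2.70) and Mcoln1 0.870 (0.757 to 1.00). The day 11 cells were shallower, and the part of depth in these ratios was not tested.

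Against wild-type macrophages, which differ from the day 11 cells in genotype, gate and library as well as in injury, 12 of 31 genes were called higher at day 11 and 1 lower. Among all 5058 genes tested, 16.5% were higher, 4.47% lower, and 73% had a ratio above 1, with a median ratio of 1.15; after division by that median, 7 of the 31 were higher, against 8.88% of all genes on that scale. The 12 were Gusb, Naglu, Neu1, Tpp1, Grn, Acp5, Lgmn, Lamp1, Scarb2, Npc1, Atp6v1a and Tfeb, and Acp5, Npc1, Naglu and Tfeb reached 20 CPM only at day 11. Acp5 had a ratio of 4.17 (3.43 to 5.11), Npc1 2.52 (2.03 to 3.16) and Lgmn 2.17 (2.10 to 2.24). Gm2a was lower, at 0.549 (0.528 to 0.570). Acp5, Scarb2 and Npc1 were thus called higher at day 11 against both steady-state sets, although both ratios share the day 11 cells. Arsb, lower against the steady-state library, had a ratio of 0.963 (0.802 to 1.16) against wild-type macrophages, so its call rested on which steady-state library was used.

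The 2 steady-state sets also differed from each other. Gm2a had 594 CPM in wild-type macrophages and 271 CPM in steady-state macrophages, a ratio of 2.19, and Lgmn had 673 CPM in wild-type and 1093 CPM in steady-state macrophages, a ratio of 0.616. Arsb had a ratio of 0.489, wild-type over steady-state macrophages, and Grn 0.546. The median over 30 members was 0.767, against 0.827 over all genes. The ratios of Gm2a, Arsb and Grn between these uninjured libraries were thus as far from 1 as that of Scarb2 or Npc1 at day 11, whereas Acp5 had 18.8 CPM in wild-type and 15.3 CPM in steady-state macrophages.

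**Figure D2:**
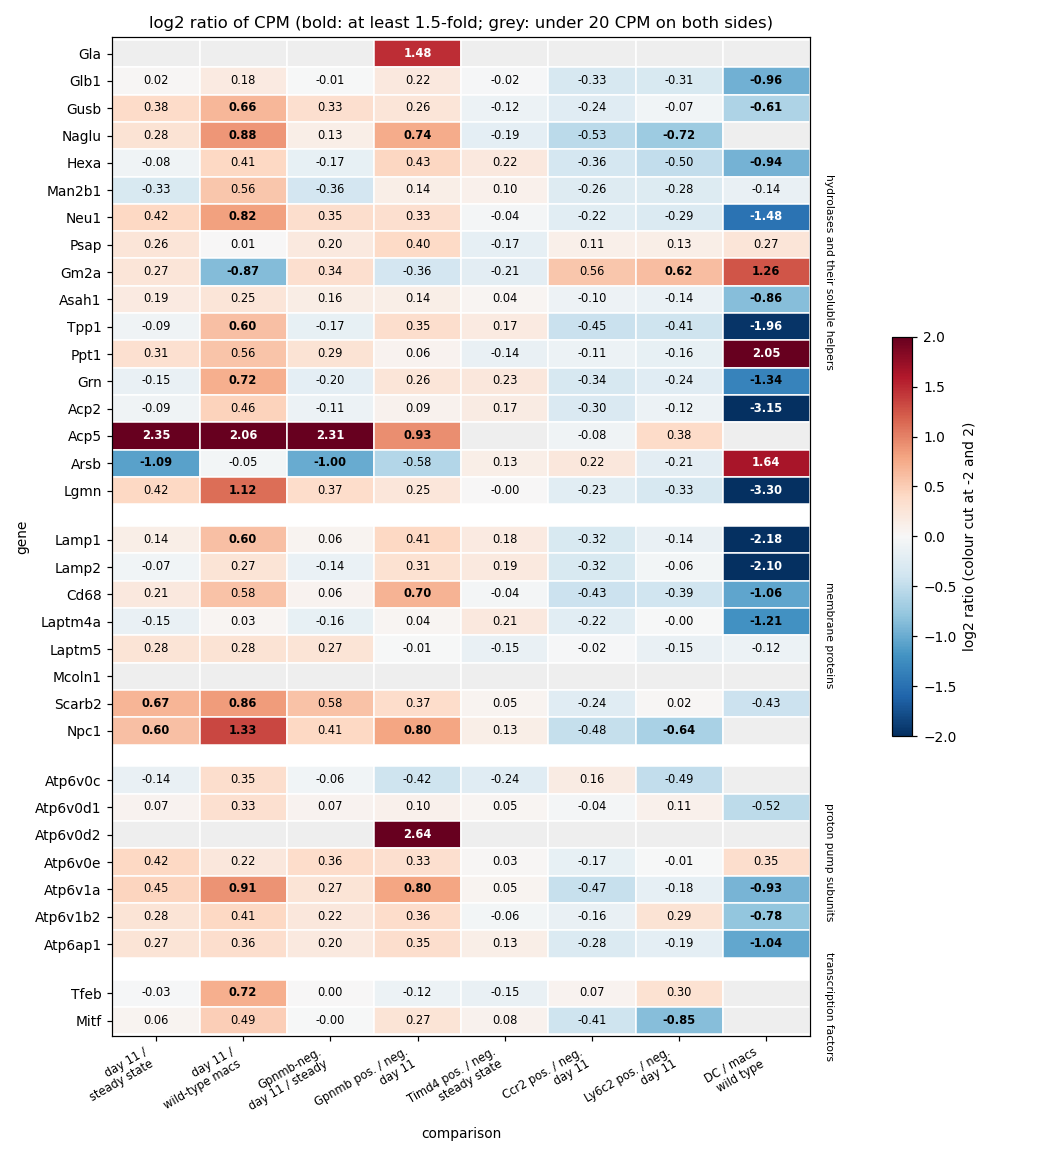
log2 ratio of CPM for each lysosomal gene (rows, by role) in 8 comparisons (columns, first-named group over the second), with bold values past 1.5-fold and grey cells where neither side reached 20 CPM. The column of Gpnmb-positive over Gpnmb-negative cells has 7 bold values, all above 0, and the DC column has 16 bold values below 0 and 3 above it.

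Within the day 11 library, cells were divided by Gpnmb, a glycoprotein of lysosomes and the cell surface whose gene is a known target of MITF. A cell was Gpnmb-positive with at least 1 Gpnmb UMI after thinning to 3000 UMIs, and 79 shallower cells were left out. There were 795 positive cells of 4363 (18.2%, 17.1 to 19.4), against 28 of 1723 (1.63%, 1.08 to 2.34) at steady state and 2 of 786 (0.254%, 0.0308 to 0.916) among wild-type macrophages; 396 of the 795 had exactly 1 UMI. For free RNA in the droplets, day 11 DCs give a coarse measure: 1 of 33 was positive (3.03%, 0.0767 to 15.8), at a median of 9233 UMIs per DC, against 8209 UMIs per macrophage. Of these 33 DCs, 28 had C1q of 500 to 1000 CPM, near the limit between DCs and macrophages. How many of the cells with 1 UMI owe it to free RNA was not tested. Positive cells were slightly deeper (median 8999 UMIs, against 8068.5), and the negative set still holds cells with a missed UMI. Since both sets came from the same library, the day after infarction and the library preparation were the same for both. The heart and the region that each cell came from are not known.

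Of the 33 genes that reached 20 CPM, 7 were higher in Gpnmb-positive cells and 0 were lower, against 2.6% and 4.8% of all 5106 genes tested. They come from all 3 roles. Among the hydrolases, Gla had 35.5 CPM in positive cells (31.5 to 39.9) and 12.7 CPM in negative cells (11.6 to 14.0), a ratio of 2.79 (2.39 to 3.25). Acp5 had 127 CPM in positive cells and 66.6 CPM in negative cells, a ratio of 1.91 (1.77 to 2.06). Naglu had 53.3 CPM in positive cells and 31.8 CPM in negative cells, a ratio of 1.68 (1.49 to 1.88). Of the membrane proteins, Npc1 and Cd68 were called. Npc1 had 59.3 CPM in positive cells and 34.2 CPM in negative cells, a ratio of 1.73 (1.56 to 1.93). Cd68 had 1064 CPM in positive cells and 656 CPM in negative cells, a ratio of 1.62 (1.58 to 1.66). Of the pump, the osteoclast-type d2 subunit and the catalytic subunit were called. Atp6v0d2, at chr4:19876841-19922605, had 41.1 CPM in positive cells (36.8 to 45.8) and 6.59 CPM in negative cells (5.75 to 7.52), a ratio of 6.24 (5.24 to 7.43). Atp6v1a, at chr16:44085402-44139705, had 164 CPM in positive cells and 94.5 CPM in negative cells, a ratio of 1.74 (1.63 to 1.85). Gla and Atp6v0d2 reached 20 CPM only in the positive cells. With at least 2 Gpnmb UMIs (399 cells), the same 7 genes had ratios of 1.78 (Npc1) to 9.60 (Atp6v0d2).

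Ratios above 1 were frequent beyond these 7: 28 of 33 genes had one, against 37.1% of all genes, and the median ratio was 1.24, against 0.952 over all genes. The median was 1.19 for the 17 hydrolases and helpers, 1.29 for 7 membrane proteins and 1.28 for 7 pump subunits. Lamp1 had 1442 CPM in positive cells and 1083 CPM in negative cells, a ratio of 1.33. Psap had 3518 CPM in positive and 2670 CPM in negative cells, a ratio of 1.32, and Hexa 966 CPM in positive and 719 CPM in negative cells, a ratio of 1.34. The 5 genes with ratios below 1 were Gm2a at 0.779 (0.743 to 0.816), Arsb at 0.669 (0.551 to 0.805), Atp6v0c at 0.747 (0.624 to 0.888), Tfeb at 0.920 (0.791 to 1.07) and Laptm5 at 0.990 (0.966 to 1.01). Mitf had 29.4 CPM in positive cells and 24.4 CPM in negative cells, a ratio of 1.21 (1.04 to 1.40), and Mcoln1, below 20 CPM, had 15.3 CPM in positive and 12.1 CPM in negative cells. The ratio of Mitf was thus close to the member median of 1.24, and both factors had smaller ratios than Gla or Atp6v0d2.

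In terms of cells, Atp6v0d2 had a UMI in 64 of 795 Gpnmb-positive cells thinned to 3000 UMIs (8.05%, 6.25 to 10.2) and in 59 of 3568 negative cells (1.65%, 1.26 to 2.13). Without thinning the shares were 18.4% of positive and 4.37% of negative cells. In wild-type DCs it was 0 of 745 cells, for which the interval reaches 0.494%. Gla had a UMI in 8.55% of positive and 3.45% of negative thinned cells (without thinning 27.3% of positive and 10.4% of negative cells), against 1.07% of thinned wild-type DCs (4.83% without thinning). Most Gpnmb-positive cells therefore had no UMI of either gene at this depth, which does not show that they lack it.

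When the day 11 cells were ordered by Gpnmb UMIs per 3000, from 0 through 1 and 2 to 3 to 4 or more (3568, 396, 232 and 167 cells), 21 of 33 genes were higher at every step, against 10% of all genes, and 1 was lower at every step, against 21.5%. Steps were counted from the values alone, and some lay within counting error. The last step of Man2b1 went from 393 CPM (368 to 419) to 395 CPM (366 to 425). Genes needed 20 CPM in any 1 bin, and Gla and Atp6v0d2 were below it in cells with 0 Gpnmb UMIs. Atp6v0d2 had 6.59, 12.0, 41.2 and 105.5 CPM over the 4 bins. Cd68 had 656, 830.4, 1119 and 1508 CPM, and Gla 12.7, 24.6, 38.6 and 55.6 CPM. The gain was steepest for Atp6v0d2, whose last bin was higher than the first 3 together. The same order held in 11 of 17 hydrolases and helpers, among them Naglu (31.8, 44.3, 51.0 and 76.6 CPM) and Psap (2670, 3137, 3435 and 4473 CPM). Gm2a ran the other way, with 340.5, 287, 257 and 226 CPM. Tfeb had 29.5, 26.6, 25.9 and 30.1 CPM and Mitf 24.4, 26.6, 33.1 and 30.6 CPM, so neither was counted as higher or lower at every step. The intervals of Tfeb overlap across the bins. For Mitf, every bin with a Gpnmb UMI lay above the first (22.7 to 26.07). Its last step down, from an interval of 26.18 to 41.34 to one of 23.0 to 39.95, lay within counting error. Median depth also grew over the bins, with 8068.5, 8420.5, 9264.5 and 10021 UMIs per cell, and its part in these levels was not tested.

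**Figure D3:**
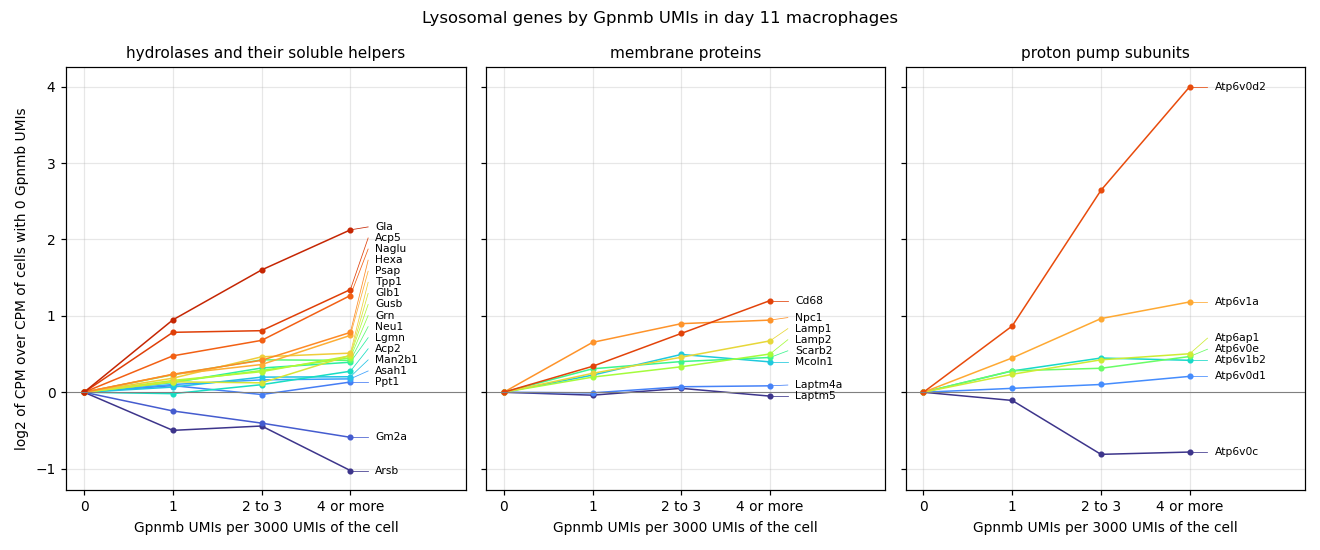
log2 of CPM relative to cells with 0 Gpnmb UMIs, against Gpnmb UMIs per 3000 UMIs of the cell, for hydrolases and helpers, membrane proteins and proton pump subunits of day 11 macrophages; each line is a gene. Atp6v0d2 climbs from 6.59 CPM at 0 UMIs to 105.5 CPM at 4 or more, while Gm2a, Arsb and Atp6v0c end below their starting level.

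Gpnmb-positive and Gpnmb-negative cells also differed in other markers. Ccr2, the chemokine receptor of monocyte-derived cells, was detected in 14.8% of positive and 39.8% of negative cells. The summed DC list had 91.2 CPM in positive cells (10 of 13 genes detected, with Xcr1, Ccr7 and Itgae at 0) and 155 CPM in negative cells (13 of 13), and the C1q genes had 18660 CPM in positive and 19020 CPM in negative cells. Among cells with no Ccr2 UMI, a split chosen after the values had been seen, the same 7 genes had ratios of 1.60 (Cd68) to 5.52 (Atp6v0d2), and Arsb 0.620. Cells with a missed Ccr2 UMI are still among them, and the part of Ccr2 in these ratios was not tested.

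The genes with and without the motif were compared for this contrast as a description. Of the members with a window, 8 with TCACGTG reached 20 CPM and had a median ratio of 1.30, Gpnmb-positive over Gpnmb-negative, and 21 without it had 1.201. Among all genes tested with a window, 329 with the motif had a median ratio of 0.975 and 3658 without it 0.951. Gla, Naglu and Atp6v1a, whose windows are printed above, were the 3 called genes with the motif. Acp5 and Cd68 were called and had no match in their windows, and Atp6v0d1, with a match, had a ratio of 1.07.

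Per cell, the summed level of the hydrolases and helpers had a median of 8744 CPM in Gpnmb-positive cells (5th to 95th percentile 5614 to 14201) and 7341 CPM in negative cells (4639 to 11112), against 6873 CPM at steady state (4622 to 10018). Membrane proteins had medians of 4549 CPM in positive cells, 3632 CPM in negative cells and 3452 CPM at steady state. Pump subunits had medians of 1329 CPM in positive cells, 1012 CPM in negative cells and 884 CPM at steady state. The distributions overlap widely in each role.

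**Figure D4:**
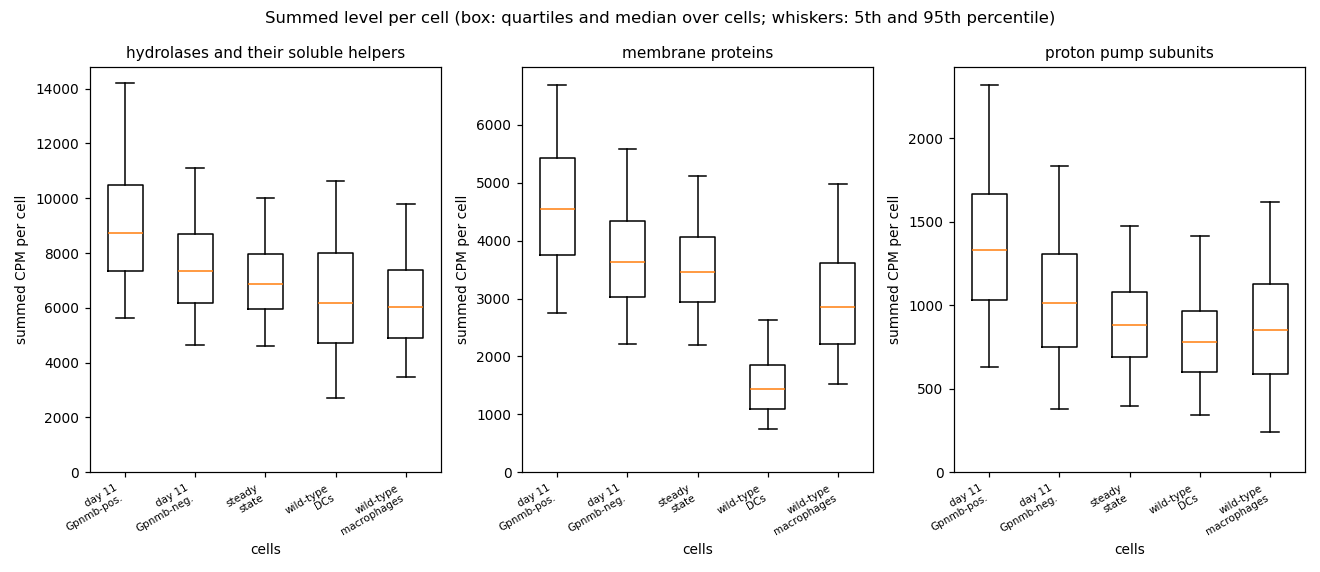
Summed CPM per cell of hydrolases and helpers, membrane proteins and proton pump subunits (vertical axes) in Gpnmb-positive and Gpnmb-negative day 11 cells, steady-state macrophages, wild-type DCs and wild-type macrophages; boxes are quartiles with the median, whiskers the 5th and 95th percentiles over cells. Gpnmb-positive cells have the highest medians (8744 CPM for hydrolases), and DCs have the lowest median for membrane proteins (1433 CPM).

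Gpnmb-negative cells of the day 11 and steady-state libraries were compared next. Acp5 remained higher, with 66.6 CPM at day 11 and 13.4 CPM at steady state, a ratio of 4.97 (4.41 to 5.63), and Arsb lower, with 24.2 CPM at day 11 and 48.5 CPM at steady state, a ratio of 0.4996 (0.456 to 0.548). These were the 1 higher and 1 lower gene of 31, against 3.48% and 5.76% of all genes, and 20 of 31 ratios were above 1, against 41.9%. Acp5 reached 20 CPM only through the day 11 cells. Scarb2 and Npc1, called over whole libraries, had 1.4998 (1.42 to 1.59) and 1.33 (1.203 to 1.47) here. Atp6v0d2 had 6.59 CPM at day 11 and 5.84 CPM at steady state, a ratio of 1.13 (0.905 to 1.41), so its difference between whole libraries was small in cells without a Gpnmb UMI. Gla kept a ratio of 2.22 (1.82 to 2.72), with 12.7 CPM at day 11 and 5.75 CPM at steady state. In cells with none of Gpnmb, Timd4, Ccr2 and Ly6c2, Acp5 had 66.3 CPM at day 11 among 2000 cells and 11.8 CPM among 855 steady-state cells. The median ratio over the members was 1.10, against 0.970 over all genes.

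Timd4, a phosphatidylserine receptor that marks resident cardiac macrophages, was detected in 427 of 1723 steady-state cells (24.8%). Of 30 genes that reached 20 CPM there, 0 were called in either direction, against 1.09% higher and 1.56% lower over all genes, and 17 had a ratio above 1, against 50.8%. Ratios ran from 0.844 (Atp6v0c) to 1.17 (Grn), a narrow range; below 20 CPM, Gla had 0.586 (0.361 to 0.913) and Atp6v0d2 1.93 (1.34 to 2.75). Grn had 1116 CPM in positive cells and 952 CPM in negative cells, and Hexa 902 CPM in positive and 776 CPM in negative cells. At day 11, where 142 cells were Timd4-positive, Acp5 had 38.6 CPM in positive cells and 79.7 CPM in negative cells, and Arsb 45.6 CPM in positive and 21.9 CPM in negative cells. For both genes the Timd4-positive day 11 cells thus lay closer to steady state than the negative cells did; between Timd4-positive cells of both libraries, Acp5 had a ratio of 2.43, day 11 over steady state. In wild-type macrophages (82 positive cells, 10.4%, against 5.5% of wild-type DCs with a Timd4 UMI), Tpp1 had 142 CPM in positive and 69.8 CPM in negative cells, Grn 942 CPM in positive and 508 CPM in negative cells, and Gm2a 213 CPM in positive and 644 CPM in negative cells. Lamp1 had 1162 CPM in positive and 721 CPM in negative cells (ratio interval 1.47 to 1.76). Lamp2 had 499 CPM in positive and 292 CPM in negative cells (1.48 to 1.96). Both were past 1.5-fold upward in these cells, as were Tpp1, Grn, Man2b1, Acp2, Laptm4a, Scarb2, Mcoln1, Npc1 and Mitf. Mcoln1 and Npc1 rested on 11 UMIs each in positive cells, and Mitf on 12. Their ratio intervals were 1.12 to 4.69, 0.783 to 3.13 and 0.745 to 2.77. How many of the 82 cells owe their Timd4 UMI to free RNA was not tested. Psap (1716 CPM in positive and 2910 CPM in negative cells) and Gm2a were past 1.5-fold downward. The shares of all genes called are not given for this split. There the median over 29 genes was 1.27, against 1.11 over all genes, unlike the steady-state library (1.03, against 1.00).

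Ccr2-positive cells at day 11 (1538 of 4363) had 0 of 31 genes called in either direction, against 1.39% higher and 1.82% lower over all genes. The ratios nevertheless leaned down: 5 of 31 were above 1, against 47.9% of all genes, and the median was 0.846, against 0.994. Naglu had 28.0 CPM in Ccr2-positive cells and 40.5 CPM in negative cells, a ratio of 0.691 (0.615 to 0.774), and Npc1 31.1 CPM in positive and 43.5 CPM in negative cells, a ratio of 0.715 (0.641 to 0.797). Gm2a was the exception, with 410 CPM in positive cells and 279 CPM in negative cells, a ratio of 1.47 (1.42 to 1.52). Atp6v0d2, below 20 CPM, had 6.21 CPM in positive and 17.2 CPM in negative cells, a ratio of 0.360 (0.285 to 0.451). Within cells with no Gpnmb UMI, which still hold cells with a missed one, the median was 0.871, against 0.983 over all genes. At steady state the median was 0.934, and in wild-type macrophages 0.732, where Gm2a had 770 CPM in Ccr2-positive cells and 418 CPM in negative cells. These last medians are not set beside those of all genes here, so they do not show a lean particular to lysosomal genes. Ccr2-positive cells were also deeper, with a median of 6836 UMIs against 5174 in wild-type macrophages and 12235.5 against 10451 at steady state. The part of depth was not tested.

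Ly6c2, a gene of inflammatory monocytes, was detected in 121 of 4363 day 11 cells (2.77%). As 2 of 33 day 11 DCs also had a UMI (6.06%, 0.743 to 20.2), this share was not shown to lie above free RNA. Those DCs are a coarse measure, since 28 of the 33 had C1q of 500 to 1000 CPM, near the class limit, and may express Ly6c2. In the wild-type library, 0.805% of DCs (0.296 to 1.74) and 2.67% of macrophages (1.66 to 4.06) had a UMI. The values that follow describe cells with a UMI, not cells shown to express the gene. Gm2a was called higher in these cells, with 492 CPM in positive cells and 321 CPM in negative cells, a ratio of 1.53 (1.41 to 1.66). Naglu (0.607, 0.402 to 0.881), Npc1 (0.640, 0.436 to 0.907) and Mitf (0.553, 0.327 to 0.879) were lower, and Mitf reached 20 CPM only in the negative cells. That is 1 and 3 of 31 genes, against 6.62% and 6.64% of all genes, and 7 of 31 ratios were above 1, against 53.6%. Atp6v0d2 had 1.58 CPM in positive cells and 13.6 CPM in negative cells, from few UMIs (ratio 0.116, 0.0140 to 0.420). The intervals are wide because few cells were positive. Gm2a thus lay on the other side of 1 from the hydrolase median in the Gpnmb, Ccr2 and Ly6c2 comparisons.

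Between DCs and macrophages of the same library, the median ratio was 0.526 over 25 genes, against 0.921 over all genes, the median farthest from 1 among the 8 comparisons plotted. Of these 25, 16 were lower in DCs and 3 higher, against 23.3% and 10.3% of all 4673 genes tested, and 5 had a ratio above 1, against 40.9%. All 4 called membrane proteins were lower, with ratios of 0.220 (0.207 to 0.234) for Lamp1, 0.233 (0.211 to 0.256) for Lamp2, 0.480 (0.453 to 0.510) for Cd68 and 0.433 (0.404 to 0.464) for Laptm4a. Among the hydrolases, Lgmn had a ratio of 0.102 (0.0926 to 0.111), Acp2 0.113 (0.0746 to 0.166) and Tpp1 0.258 (0.213 to 0.310). Acp2 and Tpp1, as well as Glb1 and Neu1, reached 20 CPM only in the macrophages. Of the pump subunits, Atp6ap1 had a ratio of 0.485, Atp6v1a 0.526 and Atp6v1b2 0.581. Atp6v0d2 had no UMI in DCs and was 6.67-fold lower there when 3 UMIs were put in for its count. That value is not a lower limit, since the macrophage level also has a counting error, and both sides were under 20 CPM. Tfeb (0.671) and Mitf (0.118) were under 20 CPM on both sides.

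The 3 genes higher in DCs were Ppt1 at 4.14-fold (3.83 to 4.48), Arsb at 3.13-fold (2.58 to 3.80) and Gm2a at 2.39-fold (2.30 to 2.49). They were uneven among DCs when these were split, after the values had been seen, into cells with Xcr1 or Clec9a UMIs, markers of cross-presenting DCs (236 cells), and cells with Cd209a UMIs (349 cells). Ppt1 had 993 CPM in Xcr1 or Clec9a DCs and 82.5 CPM in Cd209a DCs. Arsb had 103 CPM in Xcr1 or Clec9a DCs and 49.3 CPM in Cd209a DCs, and Psap 4226 CPM in Xcr1 or Clec9a DCs and 2465 CPM in Cd209a DCs. Of 4375 Ppt1 UMIs in all 763 DCs, 2830 were in the first kind of cell and 266 in the second. Gm2a was high in both, with 1532 CPM in Xcr1 or Clec9a DCs and 1330 CPM in Cd209a DCs, and Lamp1 lay the other way, at 64.2 CPM in Xcr1 or Clec9a DCs and 235 CPM in Cd209a DCs. In the day 11 library, 33 DCs had 1255 CPM of Gm2a, against 326 CPM in the macrophages beside them, and 302 CPM of Lgmn, against 1461 CPM in those macrophages. Of these 33 DCs, 28 had C1q of 500 to 1000 CPM, near the class limit.

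Other genes of the pathway, 85 that are not among the 34, were counted from lists of further hydrolases, membrane proteins, pump subunits, sorting genes, regulators and cathepsins. At day 11 against steady state, 6 of 63 that reached 20 CPM were higher and 2 lower, against 3.93% and 6.69% of all genes, and the median ratio was 1.07, against 0.960 over all genes. Ctsd, cathepsin D, had 2143 CPM at day 11 and 572 CPM at steady state, a ratio of 3.74. Ctsl, cathepsin L, had 418 CPM at day 11 and 162 CPM at steady state, a ratio of 2.58. Ctsf (27.6 CPM at day 11 and 60.9 CPM at steady state) and Cd164 (36.2 CPM at day 11 and 60.6 CPM at steady state) were the 2 lower genes. In Gpnmb-positive cells, 11 of 66 were higher and 1 lower, against 2.6% and 4.8% of all genes. In DCs, 4 of 58 were higher, against 10.3% of all genes, and 35 lower, against 23.3%, 9 of the 35 being among 10 genes for cathepsins and cystatin C.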

How the data were processed

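The authors deposited raw UMI counts per gene and cell barcode for each of 3 libraries made with 10x Chromium 3′ chemistry, version 2, per the labels' protocols. Cell Ranger, STAR and the mm10 build are named in the submitters' processing notes; the sources used here give neither their versions nor the rule for calling barcodes.

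Barcodes passed with 500 or more detected genes and no more than 10% mitochondrial UMIs, and the highest Scrublet scores (scanpy 1.11.5), in number 0.8% per 1000 barcodes, were removed: 175 barcodes at day 11 and 25 in each other library. That number replaced the automatic threshold of Scrublet, which marked almost none. DCs had at least 2 UMIs over 13 DC markers, more than over the macrophage or monocyte markers, and C1q genes under 1000 CPM; cells with at least 5 UMIs of another cell type's list and more than of C1q were set aside, and all others were taken as macrophages and monocytes. The class limits are ranges: 57 day 11 and 73 wild-type macrophages had C1q under 1000 CPM. On the other side, 28 of 33 day 11 DCs and 56 of 763 wild-type DCs had C1q of 500 to 1000 CPM. Status by Gpnmb, Timd4, Ccr2 or Ly6c2 was at least 1 UMI after thinning to 3000 UMIs. Levels use all UMIs. Intervals are exact Poisson for CPM, exact conditional for ratios and exact binomial (Clopper-Pearson) for shares, at 95%. The depth is the UMI total of each library. UMIs of 1 cell are not independent, so spread between cells and animals is left out.

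The text names all 34 genes and, of the other pathway genes, the 3 called ones with the largest and the 3 with the smallest ratio at day 11 over steady state; the third smallest, Tcirg1 (78.4 CPM at day 11 and 48.5 CPM at steady state, 1.62-fold), was called higher, as only 2 were lower. One of the genes named by this rule is not reported here. Members and lists were chosen with earlier results of these data known. Gene positions came from GENCODE vM21. The calculations ran in Python 3.11.15 with numpy 2.4.6, scipy 1.17.1 and pandas 2.3.3 and were tested on simulated data. Alternatives covered doublets, cell filters, the CPM minimum, scaling, averaging, the fold limit, marker status and class limits.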

Additional observations from a re-analysis of the deposited data

How the results depend on the processing

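Of 184 counts of called genes under other settings, 153 stayed within 1.5 times and 31 did not, mostly because counts of 0 to 3 move with 1 gene. Of 3128 single ratios, 2875 stayed inside the interval of the main value, and 0 called ratios reversed. Settings that change only the CPM minimum or the fold limit leave every ratio as it was. Part of the 2875 was therefore fixed in advance. Median log2 ratios kept their sign in the alternatives run: 0.19 to 0.27 for day 11 over steady state, 0.30 to 0.60 over wild-type macrophages, 0.26 to 0.38 for Gpnmb, 0.08 to 0.20 for Gpnmb-negative cells, 0.03 to 0.13 for Timd4, -0.27 to -0.20 for Ccr2, -0.22 to -0.14 for Ly6c2 and -0.96 to -0.81 for DCs.

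In what follows the number of called genes is given for each comparison that moved, with the share of all genes called in the same direction under that setting in parentheses. With doublets kept, 1 was lower in Gpnmb-positive cells (4.22%). At most 5% mitochondrial UMIs gave 2 higher in Gpnmb-negative day 11 cells (3.49%). A minimum of 50 CPM gave 0 lower at day 11 over steady state (7.23%), 0 lower in Gpnmb-negative day 11 cells (6.37%) and 0 lower in Ly6c2-positive cells (5.46%), because Arsb, Naglu, Npc1 and Mitf were then not tested. With no minimum, 5 were higher at day 11 over steady state (8.8%), 2 higher in Gpnmb-negative day 11 cells (8.47%), 1 higher and 1 lower by Timd4 (8.86% each), 2 lower by Ccr2 (9.7%) and 5 lower by Ly6c2 (14.7%). Division by the median of all genes gave 7 higher at day 11 over wild-type macrophages (8.88%) and 2 higher in Gpnmb-negative day 11 cells (3.88%). The mean of CPM per cell gave 1 lower by Gpnmb (4.65%). At 2-fold, day 11 over steady state had 1 higher (1.62%), over wild-type macrophages 3 higher (4.88%) and 0 lower (2.23%), Gpnmb 2 higher (0.94%), Ly6c2 0 higher (2.57%) and 0 lower (1.42%), and DCs 10 lower (12.7%). Status at 2 UMIs gave 2 lower by Gpnmb (9.17%), 2 higher in Gpnmb-negative day 11 cells (3.65%), 1 lower by Ccr2 (2.1%) and 7 lower by Ly6c2 (14.7%, against 6.64% at 1 UMI). Status without thinning gave 1 higher (1.91%) and 1 lower (1.34%) by Ccr2 and 0 higher (3.76%) and 0 lower (2.32%) by Ly6c2. DC status at C1q under 3000 CPM gave 2 higher in Gpnmb-negative day 11 cells (3.54%). Among Ccr2-negative cells, an alternative chosen after seeing the data, 1 was lower by Gpnmb (5.69%). The other alternatives chosen after seeing the data (the cardiomyocyte list not used, cells with C1q of at least 1000 CPM, cells of very high Retnla left out, Gpnmb-negative cells for Ccr2) moved no count. Except where the construction is stated, the cause was not tested.

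No paired analysis was possible because each group has 1 library. Depth limits Gla, Mcoln1, Atp6v0d2, Tfeb and Mitf most, and 1 library per group leaves the spread between animals unknown.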
